A study of Mus musculus with 20 samples.

Results

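Eosinophils of the mouse lung have been described in 2 states, a resident one present in healthy tissue and an inflammatory one that is recruited during allergic or other inflammation. The genes described here are 9 that have been used to tell these states apart or to mark activation of eosinophils: Cd101, Slc3a2, Anxa1, Nedd4, Runx3, Adgre1, Cd69, Cd9 and Cd63. They were taken as a fixed list of symbols, and each matched a single Ensembl identifier among the 49315 in the deposited count tables. All 9 passed the filter on low counts and were among the 16500 genes tested.

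Each library came from flow-sorted eosinophils pooled from 3 to 5 mice. The resting group (n = 5) came from untreated C57BL/6 mice. The day 7 group (n = 5) came from C57BL/6 recipients of a Balb/c lung, 7 days after transplantation, and its titles state that no costimulatory blockade was given, although the protocol text shared by every sample speaks of blockade. The labels call the infiltrating eosinophils recipient cells, and 10 further samples from grafts with blockade were not analysed here.

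As background, CD101 is an immunoglobulin superfamily receptor whose surface level separates inflammatory (high) from resident (low) lung eosinophils in mice. Slc3a2, the heavy chain of the CD98 amino acid transporter, has been reported as higher in the inflammatory state, and Anxa1, Nedd4 and Runx3, all linked to restraint of immune responses, as higher in the resident state. Adgre1 encodes F4/80, which mouse eosinophils share with macrophages. CD69 is an early activation receptor that holds leukocytes in tissue, and CD9 and CD63 are tetraspanins, the former abundant on the eosinophil surface and the latter a membrane protein of granules and late endosomes that reaches the surface on degranulation.

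Total counts were 6666577 to 12883144 in the resting libraries and 15695074 to 26683784 at day 7, and the lowest count of any of the 9 genes in any library was 275 (Runx3, resting replicate 1). The groups stood in separate tables, so table and group cannot be told apart, and p-values measure the spread between pools. The eosinophil receptor genes Siglecf, Ccr3 and Il5ra were present in every library, with Ccr3 at 159 to 472 CPM (counts per 1000000 counts of the library, scaled by the trimmed mean of M-values, TMM) in resting lung and 171 to 811 CPM at day 7. Of 10 eosinophil markers 1 was higher and 6 were lower at day 7, and their summed level was 1792 to 3214 CPM in resting lung and 775 to 2959 CPM at day 7. Markers of other cells were present too: the summed level of 13 monocyte and interstitial macrophage markers was 1921 to 3368 CPM in resting lung and 4388 to 10033 CPM at day 7 (CPM by library totals for all sums), and that of 10 endothelial markers 2073 to 2963 against 72.7 to 146 CPM. The 11 neutrophil markers summed to 9812 to 12508 CPM in resting lung and 4741 to 9625 CPM at day 7. The 11 epithelial markers summed to 3297 to 5077 and 37.5 to 508 CPM. Both resting ranges lay above that of the summed eosinophil markers. In such bulk libraries fewer cells of a type and less RNA per cell cannot be told apart.

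Of the 9 genes, 4 were higher at day 7 (Runx3, Cd69, Slc3a2 and Cd63), 2 were lower (Nedd4 and Anxa1) and 3 did not pass the test (Cd9, Cd101 and Adgre1), by edgeR's quasi-likelihood test at an adjusted p below 0.05 over all genes. Among all genes tested 23.3% were higher, 23.4% lower and 46.7% called in either direction. These shares are also the background for the counts of called genes in the lists below. The genes reported for each state did not move as a block. Of the pair reported for the inflammatory state Slc3a2 rose and Cd101 did not pass, and of the 3 reported for the resident state Nedd4 and Anxa1 fell while Runx3 rose. The 6 called genes were also those whose libraries did not overlap between groups, 4 higher (16.4% of all genes) and 2 lower (18.7%), which in either direction held for 35.1% of all genes. The middle value of their log2 fold changes was 0.16, against 0.05 over all genes.

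**Figure D1:**
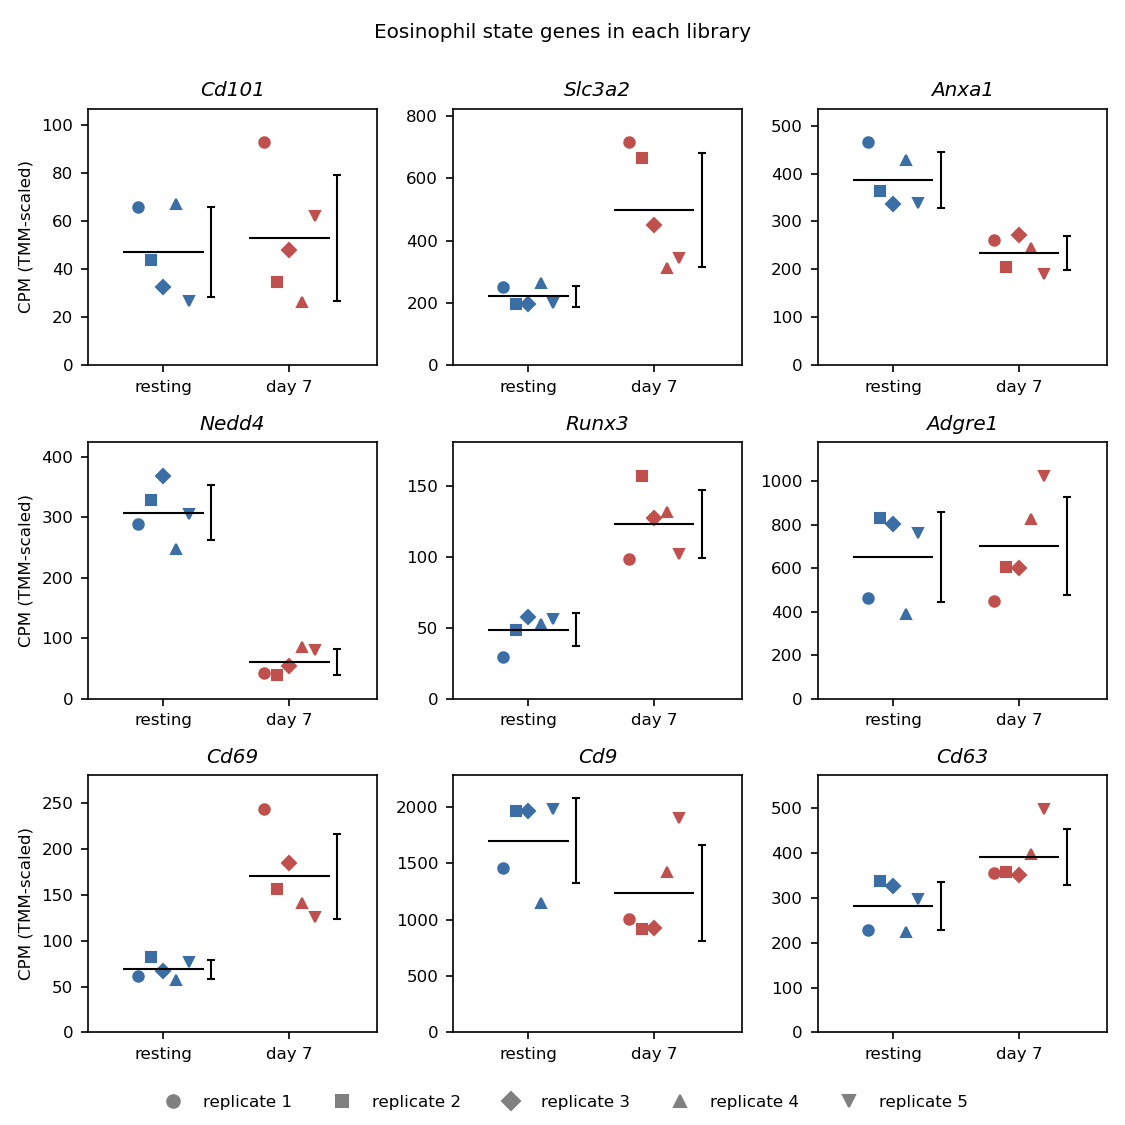
Level of each of the 9 genes in every library, in CPM scaled by TMM on a linear axis from 0, with resting lung in blue and day 7 grafts without blockade in red; symbols give the replicate, horizontal lines the mean and bars the SD (n = 5 per group). Nedd4 lies between 247 and 369 CPM in resting lung and between 39.0 and 85.4 CPM at day 7, while the Cd101, Adgre1 and Cd9 libraries of the groups overlap.

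Cd101 lies on chromosome 3 (mm10, 100993529 to 101029556, minus strand, ENSMUSG00000086564). Its level was 66.1, 44.1, 32.5, 67.3 and 27.0 CPM in resting replicates 1 to 5. In day 7 replicates 1 to 5 it was 93.1, 34.8, 48.2, 26.4 and 62.2 CPM. The groups overlapped almost fully, with a single day 7 library above the resting range and a single one below it. The log2 fold change (day 7 minus resting throughout) was 0.16 ± 0.34 (SE) with an adjusted p of 0.726. Its biological coefficient of variation was 0.373 against 0.191 for the trend of genes of its abundance, the highest of the 9. The highest library, day 7 replicate 1, also had the highest S100a8, a calcium-binding protein abundant in neutrophils, with 3116 CPM against 430 to 994 CPM in the other day 7 libraries. Neutrophil markers summed to 9625 CPM there and to 4741 to 8585 CPM in those others. Their part in the level of Cd101, which neutrophils also carry, was not tested. Leaving it out turned the log2 fold change of Cd101 to -0.13.

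Slc3a2 (chromosome 19, 8706882 to 8723369, minus strand, ENSMUSG00000010095) had 251, 196, 197, 264 and 199 CPM in the resting replicates. At day 7 it had 716, 665, 451, 312 and 345 CPM, all above the resting range. It rose by 1.17 ± 0.23 on the log2 scale (quasi-likelihood adjusted p = 0.000819), a 2.25-fold difference of means. CD98 works as a pair of this heavy chain with a light chain that does the transport, and of the 6 light chain genes examined 5 rose and 1 fell (median log2 fold change 0.97, against 0.05 over all genes). Slc7a5, the light chain LAT1 for large neutral amino acids, rose by 1.99 ± 0.29 on the log2 scale to 46.3 ± 25.9 CPM (mean ± SD, n = 5 each, here and below), and day 7 replicate 1 had 91.9 CPM of it. Slc7a8, the light chain LAT2, rose from 48.4 ± 16.1 to 180 ± 38.8 CPM. Slc7a7, which carries cationic amino acids, rose from 11.7 ± 1.98 to 28.3 ± 11.7 CPM, and Slc7a11, which imports cystine, from 557 ± 119 to 876 ± 234 CPM. The fifth to rise was Slc7a6, by 0.44 ± 0.15 on the log2 scale, and the one that fell was Slc7a10, from 388 counts in all in the resting libraries to 10 at day 7. Of 6 further partners 2 were higher and 1 was lower. The neutral amino acid carrier Slc38a1 rose from 52.2 ± 4.33 to 107 ± 14.5 CPM. Slc1a5, also a neutral amino acid carrier, was just past the threshold (adjusted p = 0.0491 by the quasi-likelihood test, a call lost under 8 of 9 other settings). The integrin gene Itgb3 fell from 131 ± 26.6 to 72.2 ± 25.8 CPM. Itgb1, another integrin gene, did not pass, at 615 ± 16.5 and 507 ± 54.5 CPM with no overlap between groups. Its adjusted p was 0.0514 by the quasi-likelihood test, and it passed as lower under 5 of 9 other settings. Slc3a2 was highest in day 7 replicates 1, 2 and 3, and these were also the libraries with the most monocyte and interstitial macrophage signal, at 6418, 10033 and 6722 CPM against 4389 and 4388 CPM in replicates 4 and 5. Macrophages express this transporter as well, and their part in its rise was not tested.

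The other genes of the inflammatory state were a list of 10 that includes surface receptors induced on activation. Of these 7 rose and 0 fell (median log2 fold change 1.01), against 23.3% higher and 23.4% lower over all genes. Cd274, the gene of the T cell inhibitory ligand PD-L1, rose from 151 ± 33.7 to 1390 ± 662 CPM. C3ar1, the receptor for complement C3a, rose from 78.3 ± 21.9 to 336 ± 76.8 CPM and Tlr4, a receptor for bacterial lipopolysaccharide, from 29.3 ± 7.88 to 117 ± 66.2 CPM. Itgax, which encodes the integrin chain CD11c, rose by 0.93 ± 0.14 on the log2 scale and Icam1, an adhesion molecule, by 1.08 ± 0.25. Those that did not pass were Il13ra1 at 118 ± 26.8 and 189 ± 84.5 CPM, Cd80 at 127 ± 30.2 and 185 ± 63.4 CPM and Fpr1 at 61.3 ± 20.2 and 65.5 ± 46.8 CPM. Il13ra1 passed without day 7 replicate 4 or 5, and Cd80 without day 7 replicate 2 or 3 or without the filter on low counts. Monocytes and macrophages carry most of these receptors, and 11 of the 13 markers of those cells rose in the same libraries. The part of those cells in these rises was not tested.

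Anxa1 (chromosome 19, 20373428 to 20390944, minus strand, ENSMUSG00000024659) encodes annexin A1, a phospholipid-binding protein that limits inflammation through formyl peptide receptors. Resting replicates 1 to 5 had 466, 363, 336, 427 and 338 CPM. Day 7 replicates had 261, 205, 273, 245 and 190 CPM, all below the resting range. It fell by 0.72 ± 0.14 on the log2 scale (quasi-likelihood adjusted p = 0.000847), and its coefficient of variation, 0.174, was the smallest of the 9. Of 9 other annexins tested 1 rose, Anxa4 (76.1 ± 4.41 to 188 ± 58.0 CPM), 2 fell, Anxa3 (143 ± 15.7 to 72.1 ± 16.7 CPM) and the scarce Anxa8, and 6 did not pass. Anxa2 and Anxa5, at 621 ± 102 and 408 ± 25.7 CPM in resting lung, had log2 fold changes of 0.07 and 0.02. S100a11, a calcium-binding partner of annexin A1, fell from 948 ± 147 to 666 ± 174 CPM, a call that ended without any 1 of 6 libraries (resting replicates 2, 3 and 5 and day 7 replicates 1, 2 and 3). Its receptor gene Fpr2 rose by 2.15 ± 0.42 on the log2 scale to 88.5 ± 68.1 CPM. Annexin A1 is also abundant in neutrophils and epithelium, whose summed markers were lower at day 7, by 1.49-fold and 14.4-fold (adjusted exact two-sided permutation p = 0.0111 each, over 14 marker lists). In TMM-scaled CPM the neutrophil sum did not pass (ratio 0.765, adjusted exact permutation p = 0.0598). The part of these cells in the fall was not tested.

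Nedd4 (chromosome 9, 72662346 to 72749852, plus strand, ENSMUSG00000032216) encodes a HECT-type ubiquitin ligase that marks membrane proteins and signalling molecules for breakdown. The resting libraries held 288, 329, 369, 247 and 305 CPM and the day 7 libraries 43.3, 39.0, 54.9, 85.4 and 81.2 CPM. The groups were far apart, and Nedd4 had the largest difference of the 9, a log2 fold change of -2.34 ± 0.22 (quasi-likelihood adjusted p = 1.77e-06) or 5.06-fold lower means. Its percentile among all tested genes, ranked per length within a library, went from a median of 89.4 to 58.3. Transcribed segments annotated inside the gene on the same strand, Gm7265, A530064N14Rik and Gm36936, share no exon base with it and fell by a similar size, with log2 fold changes of -2.53, -2.55 and -2.61. Of 9 relatives and adaptors tested 4 fell and 0 rose, against 23.4% lower and 23.3% higher over all genes. Hecw2 fell from 45.2 ± 6.51 to 10.5 ± 2.49 CPM, and Wwp1, Smurf2 and Nedd4l, all ligases of the same family, by 0.93 ± 0.11, 0.91 ± 0.12 and 0.67 ± 0.10 on the log2 scale. Itch and Wwp2, relatives studied in T cell tolerance and in stem cells, had 118 ± 10.8 and 142 ± 33.5 CPM and 134 ± 20.1 and 154 ± 13.8 CPM and did not pass, nor did the adaptor genes Ndfip1 and Ndfip2. In the same libraries the 10 endothelial markers all fell, with summed levels 21.4-fold lower, and so did 10 of 11 epithelial markers. Nedd4 is expressed in those tissues too, and their part in its fall was not tested.

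Of 3 further genes listed for the resident state, 1 fell and 0 rose. Serpinb1a, an inhibitor of neutrophil serine proteases, fell from 112 ± 10.5 to 43.7 ± 11.1 CPM. Itga4, an integrin chain, and Cd300a, an inhibitory receptor, did not pass, with log2 fold changes of 0.11 and -0.11.

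Runx3 (chromosome 4, 135120652 to 135177990, plus strand, ENSMUSG00000070691) encodes a transcription factor that binds DNA together with CBFB and shapes lymphocyte and myeloid cell fates. Its level in the resting replicates was 29.1, 48.2, 57.5, 52.6 and 55.9 CPM. The day 7 replicates had 98.4, 157, 128, 131 and 102 CPM, each above every resting library. Runx3 rose by 1.34 ± 0.18 on the log2 scale (quasi-likelihood adjusted p = 4.85e-05), whereas it has been reported as a gene of the resident state. Its relatives were also higher at day 7, Runx1 at 140 ± 35.2 against 88.0 ± 5.29 CPM and Runx2 at 32.3 ± 3.59 against 20.2 ± 1.41 CPM. The partner gene Cbfb rose from 55.5 ± 2.95 to 77.4 ± 9.69 CPM and the corepressor Tle3 from 68.9 ± 6.14 to 103 ± 11.9 CPM. Runx1t1, a cofactor with little expression in blood cells, fell from 6.37 ± 3.43 to 0.239 ± 0.165 CPM. Runx3 is abundant in CD8 T cells and natural killer cells. All 11 T cell markers rose, with a summed level of 92.0 to 142 CPM in resting lung and 320 to 880 CPM at day 7, and natural killer cell markers summed to 65.8 to 102 and 124 to 361 CPM. T cell markers were highest in day 7 replicate 5, where Runx3 was 102 CPM, near the lowest of its group. The part of these cells in the rise was not tested.

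Promoter sequences are shown for Runx3, Cd101 and Nedd4, a gene that rose, one that did not pass and one that fell, and were chosen among windows that held a match. RefSeq windows (GRCm38.p6) matched 7 of the 9 genes by symbol, and the 250 bases before each annotated start were searched on both strands for the RUNX motif TGTGGT, the GATA motif AGATAA of lineage factors, the AP-1 motif TGANTCA and the interferon-gamma activated site TTCNNNGAA. These were present in 14.0%, 9.99%, 6.75% and 7.02% of all 32851 such windows. Of the 9 windows of these genes, 3 held the RUNX motif (Runx3, Cd101 and Slc3a2), 1 each held the others, and 5 held none, among them those of Cd9, Cd63 and Anxa1. The stretches below run from base 170 to base 11 before the start, 5′ to 3′ on the gene's strand, with matches in capitals.
Runx3, distal start, chr4:135120475-135120634, plus strand: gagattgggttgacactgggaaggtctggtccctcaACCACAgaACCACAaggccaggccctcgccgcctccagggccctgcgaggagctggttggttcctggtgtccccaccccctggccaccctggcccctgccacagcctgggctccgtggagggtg
Cd101, chr3:101029564-101029723, minus strand: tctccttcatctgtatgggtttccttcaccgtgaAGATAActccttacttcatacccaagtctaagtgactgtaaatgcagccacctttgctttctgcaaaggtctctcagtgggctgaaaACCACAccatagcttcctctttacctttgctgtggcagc
Nedd4, internal start, chr9:72693128-72693287, plus strand: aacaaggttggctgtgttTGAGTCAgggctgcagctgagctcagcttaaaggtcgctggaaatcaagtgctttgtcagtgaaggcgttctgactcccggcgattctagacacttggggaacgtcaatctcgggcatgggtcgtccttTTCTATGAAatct
The distal Runx3 window held a tandem pair of RUNX matches on the opposite strand (ACCACA), and its second annotated start held none. The Cd101 window held a RUNX match on the opposite strand and a GATA match. Around the internal start of Nedd4, which lies within the annotated gene, there was an AP-1 match and an interferon-gamma activated site, while the window before the start of the whole gene had no match to any of the 4 motifs. No matches overlapped each other, and a match of letters does not show binding.

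Adgre1 (chromosome 17, 57358691 to 57483527, plus strand, ENSMUSG00000004730) had 466, 831, 803, 389 and 765 CPM in the resting replicates and 452, 607, 604, 825 and 1027 CPM at day 7. The groups overlapped, and the log2 fold change was 0.11 ± 0.25 (quasi-likelihood adjusted p = 0.752). Other eosinophil genes differed in how they varied between the libraries of a group, and Ccr3, the eotaxin receptor, was chosen for display after its values were seen. Ccr3 was lowest in resting replicates 4 and 1 (159 CPM in replicate 4, against 442 to 472 in replicates 2, 3 and 5), as Adgre1 was, and at day 7 it was lowest in replicate 1 (171 CPM) and highest in replicates 4 and 5 (585 and 811 CPM). The ratio of Adgre1 counts to the summed counts of Siglecf, Ccr3 and Il5ra stayed between 1.10 and 1.31 in the resting libraries and between 0.87 and 1.27 at day 7, a narrower range than its CPM. Siglecf was lowest in resting replicates 4 and 1 (105 and 136 CPM), like Adgre1. Of the day 7 libraries Siglecf was second highest in replicate 1 (272 CPM) and lowest in replicate 2 (134 CPM). The granule protein genes Prg2 (601 CPM) and Epx (163 CPM) were second highest of the resting libraries in replicate 4, where Adgre1 was lowest. In resting replicate 1 both were at their lowest of that group (229 and 22.5 CPM). F4/80 is also a macrophage protein, and the part of macrophages in the level of Adgre1 was not tested. Of its relatives, Adgre5, which encodes CD97, fell from 1460 ± 128 to 742 ± 200 CPM with day 7 replicate 4 at 1088 CPM, and Adgre4 did not pass (427 ± 100 and 337 ± 102 CPM). Among 3 other leukocyte receptors of this class Adgrg1 fell (31.1 ± 6.43 to 5.48 ± 2.23 CPM), Adgrg5 rose by 2.18 ± 0.35 on the log2 scale, and Adgrg3 did not pass, though it did without day 7 replicate 2 or without the filter on low counts.

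Cd69 (chromosome 6, 129267325 to 129275436, minus strand, ENSMUSG00000030156) had 61.1, 81.8, 67.4, 57.6 and 76.3 CPM in the resting replicates. The day 7 replicates had 243, 156, 185, 141 and 126 CPM, with no overlap. It rose by 1.30 ± 0.18 on the log2 scale (quasi-likelihood adjusted p = 3.80e-05), and its call held under all 9 other settings and without any single library. CD69 binds and removes the sphingosine 1-phosphate receptor S1PR1, as a protein, from the surface. At the RNA level all 5 genes of that receptor family fell, and a link of their fall to Cd69 was not tested. S1pr1 itself fell from 362 ± 43.1 to 49.9 ± 10.2 CPM and S1pr3 from 48.7 ± 12.0 to 4.38 ± 0.95 CPM, beside the fall of endothelial markers, whose cells are rich in both. S1pr4, expressed mainly by leukocytes, fell by 0.77 ± 0.20 on the log2 scale and S1pr5, typical of natural killer cells, by 1.98 ± 0.34. Myosin light chains are ligands of CD69: Myl9 fell from 48.0 ± 9.47 to 1.62 ± 1.33 CPM, Myl12a from 562 ± 16.1 to 403 ± 26.5 CPM, and Myl12b did not pass. Of the whole list of 11 genes around CD69, 7 fell and 0 rose, against 23.4% lower and 23.3% higher over all genes. In the neighbouring lectin-like gene family 2 of 5 tested rose and 1 fell. Of those that rose, the scarce Clec2g lost its call under 7 of 9 other settings, and Klrb1b, a receptor of natural killer cells, went from 2.87 ± 1.07 to 17.6 ± 5.57 CPM. Activated T cells carry CD69, and their markers rose as given above. The highest Cd69 library was day 7 replicate 1 with a T cell sum of 530.9 CPM, and the lowest was replicate 5 with the highest sum, 880 CPM. The part of T cells in the rise of Cd69 was not tested.

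Cd9 (chromosome 6, 125460266 to 125494791, minus strand, ENSMUSG00000030342) was the most abundant of the 9. Resting replicates 1 to 5 had 1460, 1961, 1960, 1149 and 1982 CPM, and day 7 replicates had 1008, 922, 923, 1421 and 1902 CPM. Day 7 replicates 1 to 3 lay below the resting range, and replicates 4 and 5 lay inside it. The log2 fold change was -0.46 ± 0.23 (quasi-likelihood adjusted p = 0.114). Without day 7 replicate 5 it was -0.66 with an adjusted p of 0.0132, and it also passed with all libraries under library totals alone (-0.63, adjusted p = 0.0394) and without the filter on low counts (-0.35, adjusted p = 0.0294). The antisense transcript Gm26728 shares 218 exon bases with Cd9 and had 7.26 ± 1.47 CPM in resting lung and 4.06 ± 1.33 CPM at day 7. Whether strand was used in counting is not known here. The parts of this transcript and of cells other than eosinophils in the level of Cd9 were not tested.

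Cd63 (chromosome 10, 128900989 to 128912822, plus strand, ENSMUSG00000025351) had 229, 337, 327, 224 and 298 CPM in the resting replicates and 355, 357, 352, 397 and 498 CPM at day 7. The lowest day 7 library stood just above the highest resting one. It rose by 0.47 ± 0.15 on the log2 scale (quasi-likelihood adjusted p = 0.0219), the smallest of the 6 called differences. A processed copy, Cd63-ps, was at 4.52 ± 0.81 and 6.16 ± 1.12 CPM, and the handling of reads that match both copies was not given in these sources.

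Of 21 other tetraspanins tested 12 fell and 3 rose (median log2 fold change -0.98), against 23.4% lower and 23.3% higher over all genes. Cd53, a tetraspanin of leukocytes, rose from 567 ± 27.5 to 1074 ± 257 CPM, and Cd81, found on many cell types, fell from 210 ± 18.1 to 93.7 ± 6.72 CPM. Cd37 and Cd82 did not pass. The largest falls were those of Tspan7, Tspan18 and Tspan9, with log2 fold changes of -6.91, -6.85 and -4.81, next to the fall of endothelial markers, and the part of those cells was not tested. CD101 belongs to the EWI family, immunoglobulin proteins several of which bind tetraspanins such as CD9. Igsf8, which encodes EWI-2, rose from 19.5 ± 3.95 to 65.0 ± 24.8 CPM, while Ptgfrn, a direct partner of CD9, fell from 18.1 ± 3.61 to 2.91 ± 0.77 CPM and Igsf3 from 3.52 ± 1.45 to 1.17 ± 0.69 CPM. Genes of vesicle fusion and of granule and endosome membranes, which handle CD63, numbered 14. Of these 8 rose and 0 fell (median log2 fold change 0.41), against 23.3% higher and 23.4% lower over all genes. Lamp1 and Lamp2, lysosomal membrane glycoproteins, rose to 792 ± 72.8 CPM from 289 ± 56.2 CPM and to 846 ± 168 CPM from 412 ± 8.51 CPM. Sdcbp, the syntenin adaptor that binds CD63, rose from 954 ± 106 to 1729 ± 300 CPM and Timp1, a secreted ligand of CD63, from 4.36 ± 1.34 to 14.8 ± 3.26 CPM. The fusion proteins Snap23 and Vamp8 did not pass, with log2 fold changes of 0.31 and 0.29, nor did Unc13d and Vamp7, at 0.02 and 0.12. Lysosomal genes are abundant in macrophages, whose markers rose in these libraries. The part of macrophages in the rise of these genes was not tested.

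**Figure D2:**
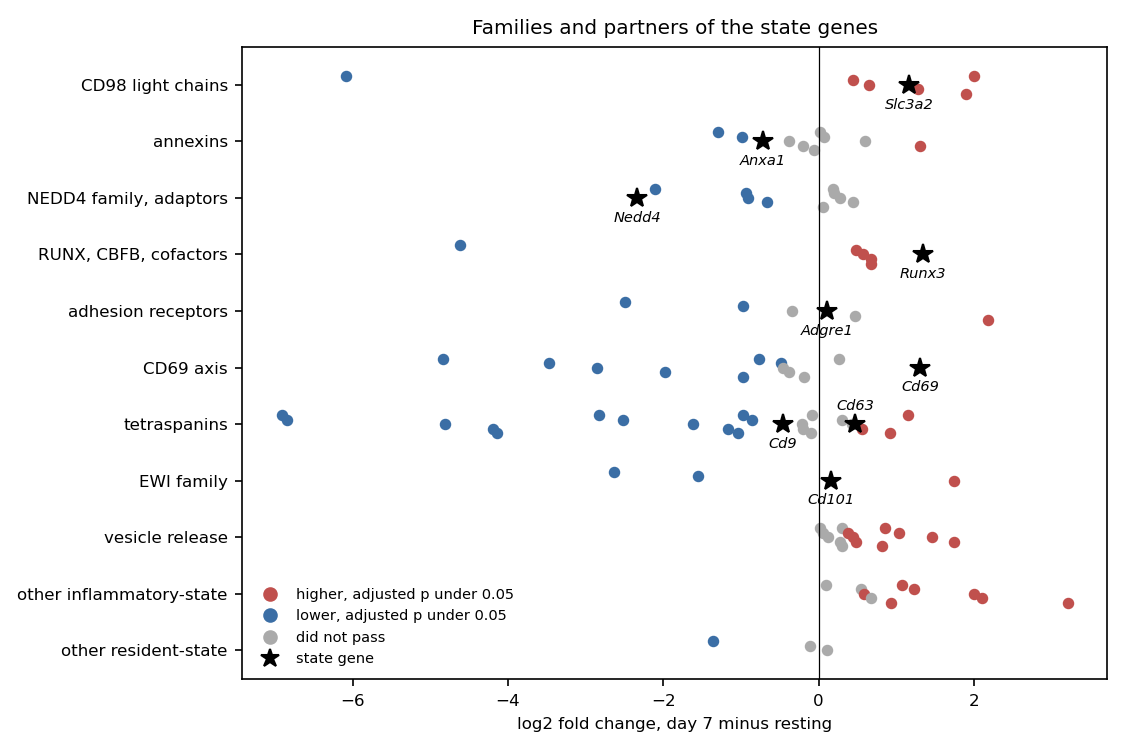
Log2 fold change (day 7 minus resting, horizontal axis) of the families and partners of the 9 genes in 11 of the 14 lists examined; each dot is a gene, red for higher and blue for lower at an adjusted p below 0.05, grey for genes that did not pass, and stars mark the state genes. The CD98 light chains lie to the right of 0 except Slc7a10, the genes around Cd69 lie mostly to the left of it, and the vesicle release genes are all at or right of 0.

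Compared per length (CPM per kilobase of annotated exons), resting libraries held Cd9 at 833 ± 186, Adgre1 at 201 ± 63.9, Anxa1 at 133 ± 19.8, Cd63 at 76.8 ± 14.5, Slc3a2 at 62.7 ± 9.43, Nedd4 at 28.0 ± 4.13, Cd101 at 14.2 ± 5.61, Cd69 at 10.6 ± 1.56 and Runx3 at 9.73 ± 2.30. Neighbours whose ranges overlapped in this order were Adgre1 with Anxa1, Cd63 with Slc3a2, and Cd101, Cd69 and Runx3 with each other. At day 7 the order was Cd9 (604 ± 208), Adgre1 (217 ± 69.4), Slc3a2 (141 ± 52.1), Cd63 (106 ± 16.9), Anxa1 (80.6 ± 12.2), Cd69 (26.1 ± 7.14), Runx3 (24.7 ± 4.79), Cd101 (15.9 ± 7.88) and Nedd4 (5.54 ± 1.95). Day 7 neighbours that overlapped were Slc3a2 with Adgre1 and with Cd63, and Cd69, Runx3 and Cd101 with each other. Nedd4 thus moved from above Cd101, Cd69 and Runx3 to below them, with no overlap in either group. The lengths pool every annotated exon, so genes with many isoforms are given too low a level per kilobase.

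The 9 genes also varied among themselves within groups. Cd9 and Cd63 were lowest in resting replicates 1 and 4, like Adgre1, whereas Slc3a2, Anxa1 and Cd101 were highest in those same libraries. Over the 10 libraries, after subtraction of each group's mean log2 CPM, Pearson's r was 0.94 between Adgre1 and Cd63, 0.91 between Adgre1 and Cd9, 0.91 between Cd9 and Cd63 and -0.96 between Nedd4 and Slc3a2. These values are a description with no test, since all genes of a library share its cell makeup and depth. By the same measure, among 6764 named genes with a mean of at least 20 CPM, those most like Cd9 were Notch1, Cd80 and Cdc73 (r = 0.99, 0.99 and 0.98) and those most like Adgre1 were H2-Q6, Ptp4a2 and Ctdsp1 (0.99, 0.98 and 0.98). Cd63 was most like Dhx40, Ciapin1 and Kctd20 (0.99, 0.97 and 0.97), Slc3a2 like Lrrc32, Klhdc4 and Mrpl52 (0.99, 0.98 and 0.97) and Nedd4 like Ccpg1, Arl2bp and Atp2a3 (0.97 each). For Cd69 these were Snx10, Ankfy1 and Avl9 (0.96, 0.95 and 0.94), for Anxa1 Mcemp1, Snrk and Zfyve26 (0.95, 0.95 and 0.92), for Runx3 Fkbp8, Thoc6 and Snrpa1 (0.95, 0.95 and 0.94) and for Cd101 Tnfsf10, Gle1 and Chordc1 (0.92, 0.91 and 0.90).

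**Figure D3:**
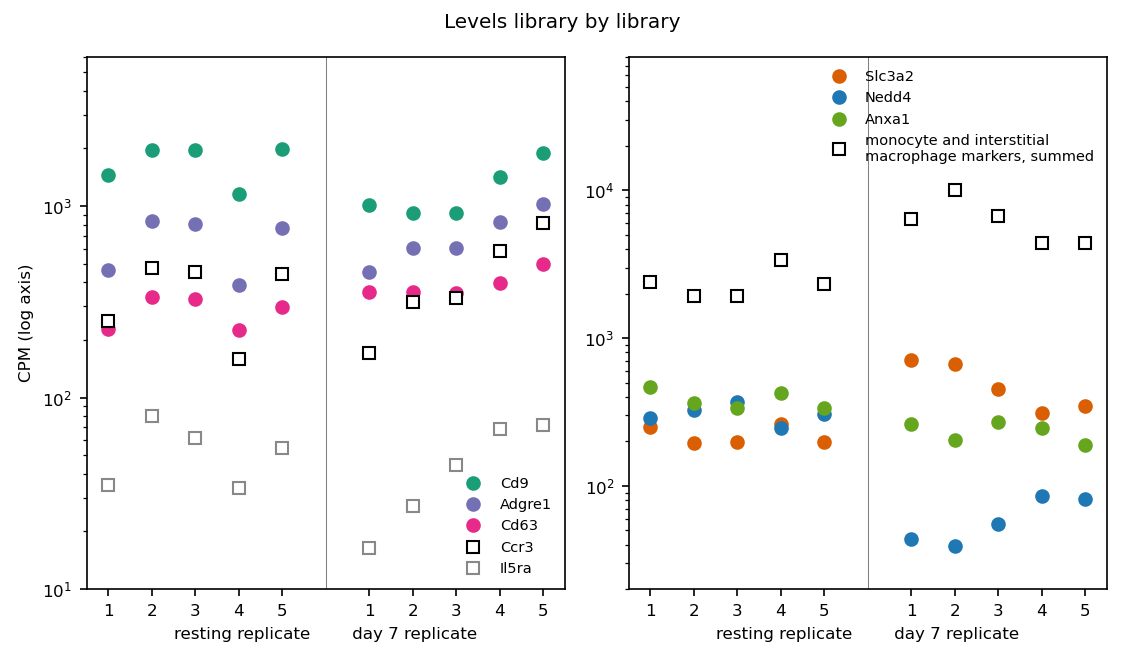
Levels in each library on a log axis in CPM, resting replicates left of the grey line and day 7 replicates right of it. In the left panel Cd9, Adgre1 and Cd63 (filled) are lowest in resting replicates 1 and 4, as are Ccr3 and Il5ra (open). Prg2 and Epx, not drawn, were second highest of the resting libraries in replicate 4 and lowest in replicate 1. In the right panel Slc3a2 is highest in day 7 replicates 1 and 2, where Nedd4 is lowest, beside the summed monocyte and interstitial macrophage markers (open).

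How libraries are scaled bears on the smaller differences. With library totals alone the median difference over all genes moved by -0.19 on the log2 scale from its value with TMM, and with libraries scaled to the summed counts of Siglecf, Ccr3 and Il5ra by -0.30, with larger errors for each of the 9 genes. With totals alone the call of Cd63 ended (log2 fold change 0.29, adjusted p = 0.130), Cd9 passed as lower (-0.63, adjusted p = 0.0394), and Cd101 and Adgre1 turned to -0.05 each without passing. Of these 3 genes Siglecf, also in the inflammatory-state list, was itself called higher with TMM (0.59, quasi-likelihood adjusted p = 0.0465). Ccr3 and Il5ra did not pass, and 6 of the 10 eosinophil markers were lower, so other eosinophil genes would give another scaling. Scaled to the eosinophil receptors, Nedd4 (-2.75) and Cd69 (1.14) kept their calls. Slc3a2 (0.92, adjusted p = 0.149), Runx3 (1.07, adjusted p = 0.0512), Anxa1 (-1.06, adjusted p = 0.0557) and Cd63 (0.17, adjusted p = 0.832) kept their direction and lost theirs, by edgeR's quasi-likelihood test. Among the related genes named by rule, the same scaling ended the calls of Itgax, Slc7a7, Slc38a1, Slc1a5, Anxa4, S100a11, Nedd4l, Runx2, Tle3, Cbfb, Clec2i, Clec2g, Lamp2 and Sdcbp. For called genes named outside that rule, such as Icam1, Slc7a6, Slc7a11, Runx1, Cd53 and Cd81, results under the alternatives are not reported here. Relative to the median of all genes, Cd63 stood at 0.42 with TMM, 0.43 with totals and 0.43 with the eosinophil scaling, and Runx3 at 1.29, 1.29 and 1.33.

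**Figure D4:**
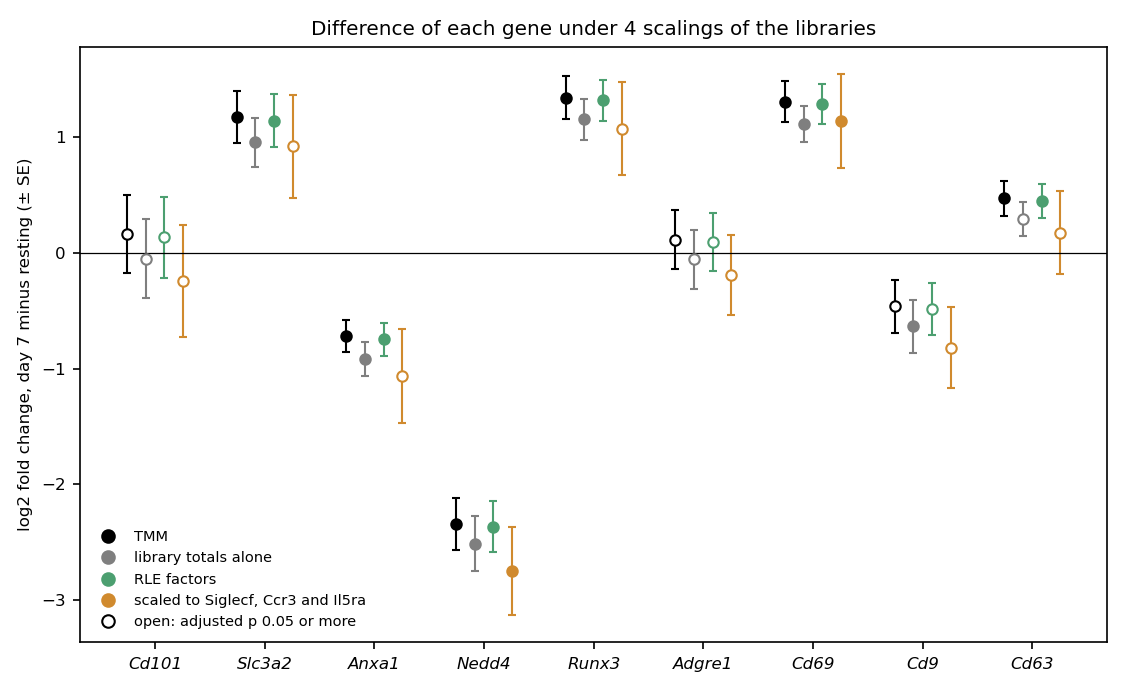
Log2 fold change of each of the 9 genes (vertical axis, day 7 minus resting, bars are SE) under 4 scalings of the libraries; filled points have an adjusted p below 0.05. Nedd4 and Cd69 are filled under each of them, and scaling to Siglecf, Ccr3 and Il5ra gives the lowest value of every gene except Cd69, with wider bars than TMM.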

How the data were processed

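RNA sequencing counts of sorted lung eosinophils were used from 2 groups of 5 libraries. The authors deposited raw counts per gene. The submitters' processing notes name the build mm10 and, in no stated order, Subread 1.5.2, featureCounts, STAR 2.5.2b, Trimmomatic 0.36 and bcl2fastq 2.17. Strand setting, annotation release and handling of multi-mapping reads: not given in the sources used here. Columns were tied to samples by name, and 10 columns that match no label were not used. The tables were joined by identifier, and symbols, coordinates and exon lengths came from GENCODE M21, with 259 identifiers unmatched. No 2 libraries of a group agreed within sampling noise.

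Genes were filtered with filterByExpr and tested with edgeR 4.0.16 in R 4.3.3 (quasi-likelihood F test, robust, TMM, group as the only term, Benjamini-Hochberg over 16500 genes, threshold 0.05). Standard errors are the size of the log2 fold change over the square root of F. Log2 CPM used a prior count of 2. The test was checked on simulated data. Marker sums (CPM by library totals) were tested by exact permutation over the libraries, two-sided (scipy 1.17.1). Named genes were the 9 members, up to 4 called and 2 abundant uncalled genes of each related list, and 3 genes most like each member. Other genes were named after their values were seen. Some genes of the related lists are not reported here. Members and lists were chosen with earlier results of these data known. Alternatives were other scalings, DESeq2 1.42.0, limma 3.58.1 voom, no filter, no robust step, a replicate block and leaving out each library.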

Additional observations from a re-analysis of the deposited data

Results flagged for a closer look

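Among 176 sets of 5 libraries examined (each gene or marker sum in each group), 10 had a library far from the other 4, and chance alone gives about 1 in 20. None concerned the 9 state genes. Day 7 replicate 1 stood high for S100a8 (3116 CPM, others 430 to 994), S100a9 (2850 CPM, others 462 to 1087), Slc7a5 (91.9 CPM, others 31.7 to 43.3), Cd82 (287 CPM, others 188 to 204) and Itch (202 CPM, others 120 to 132). Day 7 replicate 4 stood high for Adgre5 (1088 CPM, others 600.1 to 734). Day 7 replicate 5 had the highest summed dendritic cell markers (291 CPM, others 203 to 220), day 7 replicate 3 the highest Clec2g (2.86 CPM, others 1.34 to 1.76) and day 7 replicate 2 the lowest Anxa8 (0.22 CPM, others 1.67 or more). Wwp1 was lowest in resting replicate 3 (34.4 CPM, others 38.3 to 39.1).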

How the results depend on the processing

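Nedd4 and Cd69 kept direction and call under every alternative run, as did Slc3a2, Anxa1, Runx3 and Cd63 when any single library was left out, where Cd63 had adjusted p-values of 0.0152 to 0.0471 (edgeR). For each change below the cause was not tested. With library totals alone 2495 genes were called higher and 4883 lower (33.8% of calls higher, against 49.9% with TMM), Cd63 did not pass (0.29), Cd9 passed (-0.63), and Cd101 (-0.050), Adgre1 (-0.055), Itga4 (-0.057), Anxa2 (-0.13) and Fpr1 (-0.13) turned negative on the log2 scale. Scaled to the eosinophil receptors, 778 genes were higher and 3005 lower (20.6% higher), and 1 of the 9 genes was called higher and 1 lower. There Slc3a2 (0.92), Anxa1 (-1.06), Runx3 (1.07) and Cd63 (0.17) did not pass, and Cd101 (-0.25), Adgre1 (-0.19), Itga4 (-0.19), Slc1a5 (-0.084), Bsg (-0.055), Anxa2 (-0.26), Fpr1 (-0.15), Wwp2 (-0.034) and Stxbp2 (-0.011) turned negative. Without a filter 4862 genes were higher and 6715 lower, Cd9 passed (-0.35), as did Cd80, Bsg, Itch, Adgrg3, Cd82, Snap23 and Stxbp2, and Cd300a turned to 0.0043. DESeq2 called 4001 higher and 6209 lower (39.2% higher), and limma voom put Fpr1 at -0.080. In TMM-scaled CPM the ratios of summed markers, day 7 over resting, were 0.692 for alveolar macrophages, 0.765 for neutrophils and 0.812 for B cells, none past the threshold any more, and 1.28 for dendritic cells, now past it.

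Leaving out each library gave log2 fold changes of -0.13 to 0.34 for Cd101, -0.054 to 0.25 for Adgre1 (negative without resting replicate 4 or day 7 replicate 5), -0.66 to -0.36 for Cd9 (called without day 7 replicate 5), -0.064 to 0.23 for Itga4 and -0.40 to 0.31 for Fpr1. Marker ratios ranged from 0.525 to 0.742 for eosinophils, past the threshold only without day 7 replicate 5, and from 0.547 to 0.673 for alveolar macrophages. Calls also depended on single libraries for Slc1a5 and Clec2g (7 each), S100a11 (6), Anxa8 and Clec2i (2 each), and Itgb1, Anxa6, S100a8, S100a9 and Snap23 passed without some library.

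Replicate numbers did not pair the libraries, since same-numbered ones correlated at -0.19 to 0.12. A replicate block called 3317 genes higher and 3636 lower, kept all 6 calls among the 9 genes, and turned Fpr1 to -0.069. At 3 counts the depth allowed 0.112 to 0.450 CPM, far below every level of the 9 genes.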
